A study of Homo sapiens with 38 samples.

Results

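DMBX1, POU4F1, BARHL1 and BARHL2 are 4 homeodomain transcription factors of the developing brain that are commonly used as markers of the diencephalon and its borders. They were taken as the rows of the deposited expression table with these gene names, 4 of 58219 genes. Poly(A) RNA was sequenced from wild-type cells of H9, which is an established line of human embryonic stem cells, so all values come from 1 line. The 38 libraries form 19 groups of 2: undifferentiated cells at day 0 (D0 ESC), and neural progenitor cells in 9 conditions at day 4 and again at day 8. The conditions were IWP2 at 2 µM (a blocker of WNT secretion), CT at 0.0, 0.4, 0.8, 1.0, 2.0, 3.0 or 4.0 µM (the activator of WNT signalling, a name the labels leave unexpanded), and CT at 4.0 µM with retinoic acid at 1.0 µM (CT4.0RA). Groups are named by day and condition (D4 CT0.4), and CT0.0 is called untreated. By the design text, the cultures span the neural axis from the rostral forebrain (IWP2) over the diencephalon, midbrain and hindbrain (CT doses) to the spinal cord (CT4.0RA).

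The diencephalon arises from the caudal forebrain and gives rise to the pretectum, the thalamus with the habenula, and the prethalamus. WNT ligands from the dorsal midline, the midbrain border and the zona limitans intrathalamica, a signalling ridge within the diencephalon, pattern it along both axes. DMBX1 is a paired-type repressor of the caudal diencephalon and midbrain. POU4F1 (also BRN3A) is a POU-domain factor of the medial habenula, the tectum and sensory neurons. BARHL1 and BARHL2 are paralogs related to fly Bar genes. BARHL2 marks the zona limitans and parts of the thalamus, and BARHL1 marks the mammillary region and migrating neurons of the rhombic lip.

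The 4 identifiers in the table match GENCODE release 29 on hg38 with their versions. DMBX1 (ENSG00000197587.10) lies on the plus strand of chromosome 1 at 46506996 to 46514226. POU4F1 (ENSG00000152192.7) lies on the minus strand of chromosome 13 at 78598362 to 78603560. BARHL1 (ENSG00000125492.9) lies on the plus strand of chromosome 9 at 132582185 to 132590266, and BARHL2 (ENSG00000143032.7) on the minus strand of chromosome 1 at 90711539 to 90717237. POU4F1 overlaps 2 antisense genes, and the sources used here do not say whether the quantification used strand. One of these, RNF219-AS1, was at 0.434 ± 0.228 TPM in D4 CT0.4 and 0.265 ± 0.0484 in D8 CT0.4 (mean ± SD, n = 2), where POU4F1 was high, and it reached at most 1.00 TPM in a group mean. The other had no row under its GENCODE name in the deposited expression table, so no level is given for it. No annotated gene overlaps DMBX1, BARHL1 or BARHL2.

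Promoters are shown for the genes whose levels moved together, as the bases before the RefSeq start of the gene (GRCh38.p14, 5′ to 3′ on the gene's strand). All 4 members had an entry. The BARHL1 window lies wholly within an exon of GENCODE 29 and is not shown, and the POU4F1 window is shown without its last 8 bases for the same reason. The DMBX1 start in RefSeq lies 17160 bases upstream of the GENCODE 29 start. Capitals mark the single match to the homeodomain core searched.
DMBX1, chr1:46489586-46489835, plus strand: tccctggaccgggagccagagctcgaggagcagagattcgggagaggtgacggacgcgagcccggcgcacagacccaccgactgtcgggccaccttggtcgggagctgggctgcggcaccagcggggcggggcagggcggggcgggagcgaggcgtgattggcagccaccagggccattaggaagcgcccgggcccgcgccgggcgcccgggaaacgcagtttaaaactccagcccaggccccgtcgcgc
POU4F1, chr13:78603561-78603802, minus strand: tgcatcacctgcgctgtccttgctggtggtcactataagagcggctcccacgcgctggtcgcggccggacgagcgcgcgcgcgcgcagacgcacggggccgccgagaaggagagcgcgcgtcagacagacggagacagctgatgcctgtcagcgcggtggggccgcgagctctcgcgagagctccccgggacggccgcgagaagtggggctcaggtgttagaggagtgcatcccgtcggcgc
BARHL2, chr1:90717303-90717552, minus strand: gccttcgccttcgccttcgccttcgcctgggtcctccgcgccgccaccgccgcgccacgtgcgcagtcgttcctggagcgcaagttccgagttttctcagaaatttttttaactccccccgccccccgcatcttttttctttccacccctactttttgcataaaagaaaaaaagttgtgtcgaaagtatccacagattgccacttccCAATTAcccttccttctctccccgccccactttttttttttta

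The windows of DMBX1 and POU4F1 were rich in G and C (73.2% and 70.7%), and that of BARHL2 was less so (52.4%). In all 4 windows of 250 bases, 3 motifs were searched on both strands. The core of TCF/LEF, the DNA-binding partners of β-catenin (CTTTGAA or CTTTGAT, and also CTTTGTA or CTTTGTT), was found in none of the 4, and in 12% of 35116 promoters of the same length. The OTX core TAATCC was also in none, against 5.62% of promoters. The homeodomain core (TAATTA or CAATTA), held by 10.4% of promoters, was found once, in BARHL2, at 43 to 38 bases before the start. The OTX core and TAATTA begin with the same letters, and a match is a description of the sequence.

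All values are TPM (a share of all transcripts, corrected for their length). TPM holds no depth, so read numbers are unknown. Changes are differences of means of log2(TPM + 1) ± SE from a limma fit over all 38 libraries, which understate the change of low genes. A change was called, and is written as rose or fell, at a Benjamini-Hochberg adjusted p under 0.05 over 28221 tested genes and a log2 change of at least 1. The design text calls the 2 libraries of a group biological replicates, without saying whether each came from its own differentiation. The p-values therefore measure only the spread between these libraries. In bulk RNA, more cells that express a gene and more RNA of it per cell cannot be told apart. Ribosomal protein and mitochondrial genes held 24.5% of all TPM in D8 CT0.4 and 44.3% in D8 CT4.0RA, the lowest and highest group. Over log2(TPM + 1), 33 of 38 libraries were closest to the other library of their group, and both untreated day 8 libraries, the reference of every day 8 dose, were among the exceptions.

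All 4 genes had their highest level at 0.4 µM CT on both days. The gene table was filtered at 1 TPM in at least 2 libraries. DMBX1 reached 1 TPM in 13 libraries, POU4F1 in 12, BARHL1 in 4 (all CT0.4) and BARHL2 in 2 (both D8 CT0.4). BARHL1 and BARHL2 therefore entered the tests only through the groups in which they were high. For both, a rise at CT0.4 or a fall from it was thus nearly fixed in advance, as was the rise of BARHL2 between days. Counts of calls that include them are descriptions in these comparisons. Of the sum of the 9 condition means at day 4, CT0.4 held 78.4% for DMBX1, 74.4% for POU4F1, 91.4% for BARHL1 and 79.8% for BARHL2. At day 8 these shares were 90.8%, 86.9%, 98.9% and 96.6%. An F test over the 9 conditions (limma, adjusted p under 0.05) passed for 3 of 4 members at day 4, where 46.4% of all genes passed, and for 4 of 4 at day 8, where 57.9% did. BARHL2 was the member that did not pass at day 4 (adjusted p = 0.687). Since BARHL1 and BARHL2 passed the filter only through CT0.4 groups, their passes in this F test are descriptions too.

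**Figure D1:**
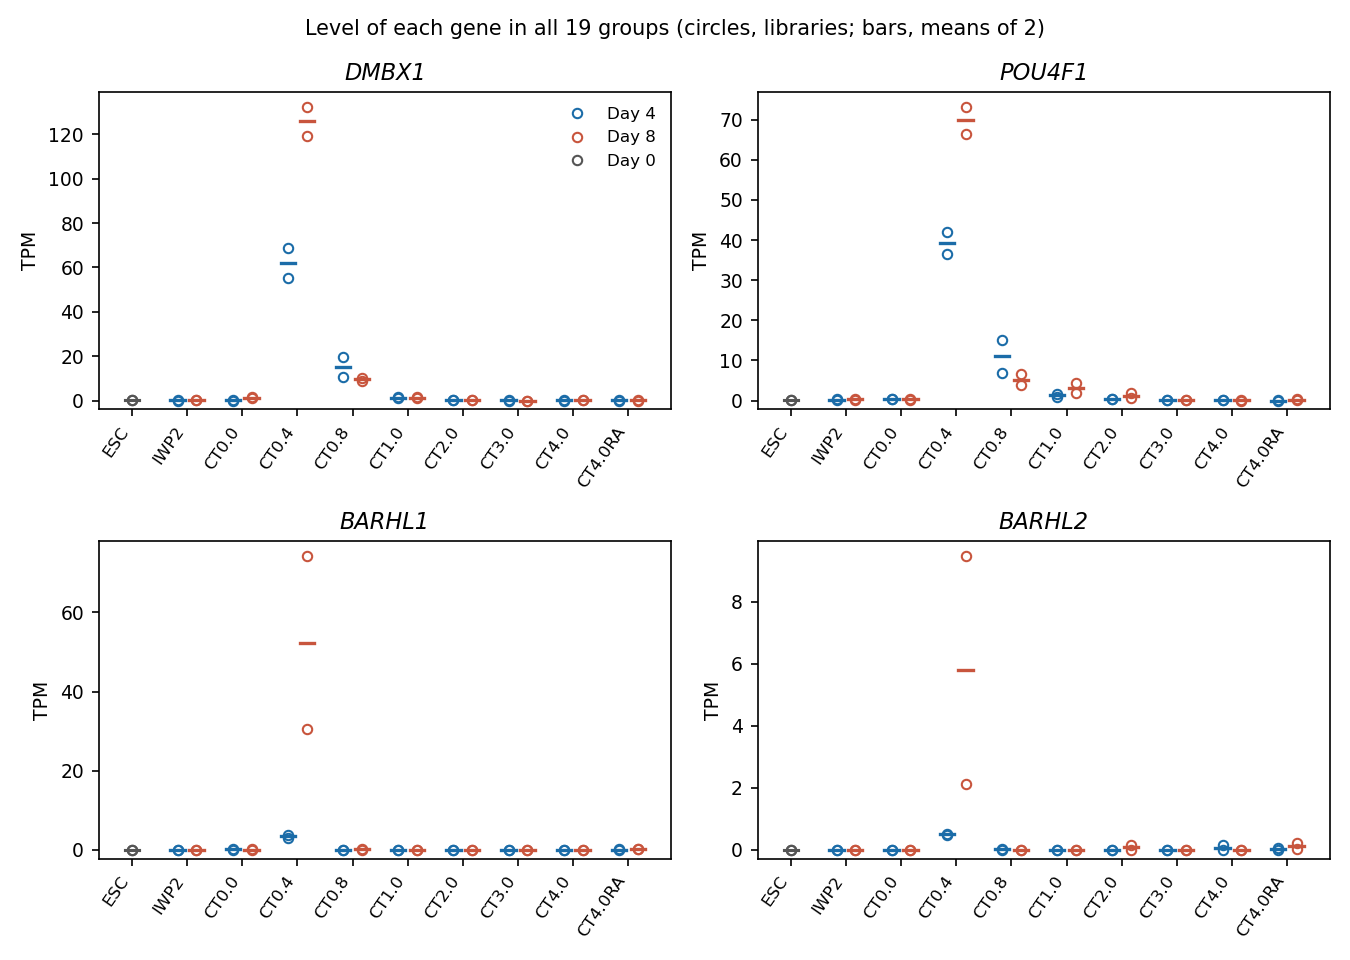
TPM of each gene (vertical axes, linear, with a different range in each panel) in undifferentiated cells (ESC) and the 9 conditions at day 4 (blue) and day 8 (red). Circles are libraries and bars are means of 2, and the CT0.4 circles stand above all other groups of the same day in every panel.

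DMBX1 was at 0.407 and 0.201 TPM in the 2 undifferentiated libraries and at 0.031 and 0.321 in untreated cells at day 4. The D4 CT0.4 libraries held 55.5 and 68.7 TPM, the D4 CT0.8 libraries 19.5 and 10.8, and the D4 CT1.0 libraries 1.5 and 0.945. From CT2.0 to CT4.0, with retinoic acid and with IWP2, no day 4 library exceeded 0.398 TPM. The 3 highest groups thus fell in the order of rising dose, from CT0.4 to CT1.0, without overlap between neighbours, and the 6 lower groups lay under 1 TPM. POU4F1 had the same order at the top of day 4. Its D4 CT0.4 libraries held 36.6 and 42.1 TPM, its D4 CT0.8 libraries 15.1 and 6.99, and its D4 CT1.0 libraries 1.69 and 0.869, against 0.295 and 0.316 in untreated cells. Neighbouring groups again did not overlap down to CT2.0 (0.415 and 0.328 TPM). In both genes the CT0.8 libraries differed more from each other, as a ratio, than the CT0.4 libraries did, and in both replicate 1 was the higher.

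BARHL1 at day 4 was at 3.84 and 3.09 TPM in CT0.4 and at or under 0.207 TPM in each of the 16 other day 4 libraries. BARHL2 was at 0.501 and 0.492 TPM there and at or under 0.149 elsewhere at day 4. Its CT0.4 libraries lay above all others, but under 1 TPM. At day 4 BARHL1 thus stood above 1 TPM at CT0.4 alone, and BARHL2 at no dose, whereas DMBX1 and POU4F1 stood above 1 TPM in both libraries at CT0.8 as well.

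Against untreated cells at day 4, 3 of 4 members rose at CT0.4, where 0.659% of all genes rose. BARHL1, counted here, passed the filter only through CT0.4 groups, so its part of the count is a description. The change was 5.75 ± 0.23 for DMBX1, 4.95 ± 0.30 for POU4F1 and 2.02 ± 0.24 for BARHL1 (adjusted p = 4.6e-06 for the last). BARHL2 did not pass (0.58 ± 0.29, adjusted p = 0.239). DMBX1 (3.74 ± 0.23) and POU4F1 (3.12 ± 0.30) also rose at CT0.8, with 1.18% of genes rising. At CT1.0 no member was called. DMBX1 had a difference of 0.92 ± 0.23 there (adjusted p = 0.0055), under the size asked, and POU4F1 one of 0.78 ± 0.30 (adjusted p = 0.0641). Both were called with a pseudocount of 0.5 (1.36 and 1.11), after rescaling without ribosomal and mitochondrial genes (1.24 and 1.06) or without replicate 2 of D4 CT1.0 (1.10 and 1.04), and DMBX1 also without replicate 2 of D4 CT0.0 (1.10). All these comparisons share the untreated libraries.

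**Figure D2:**
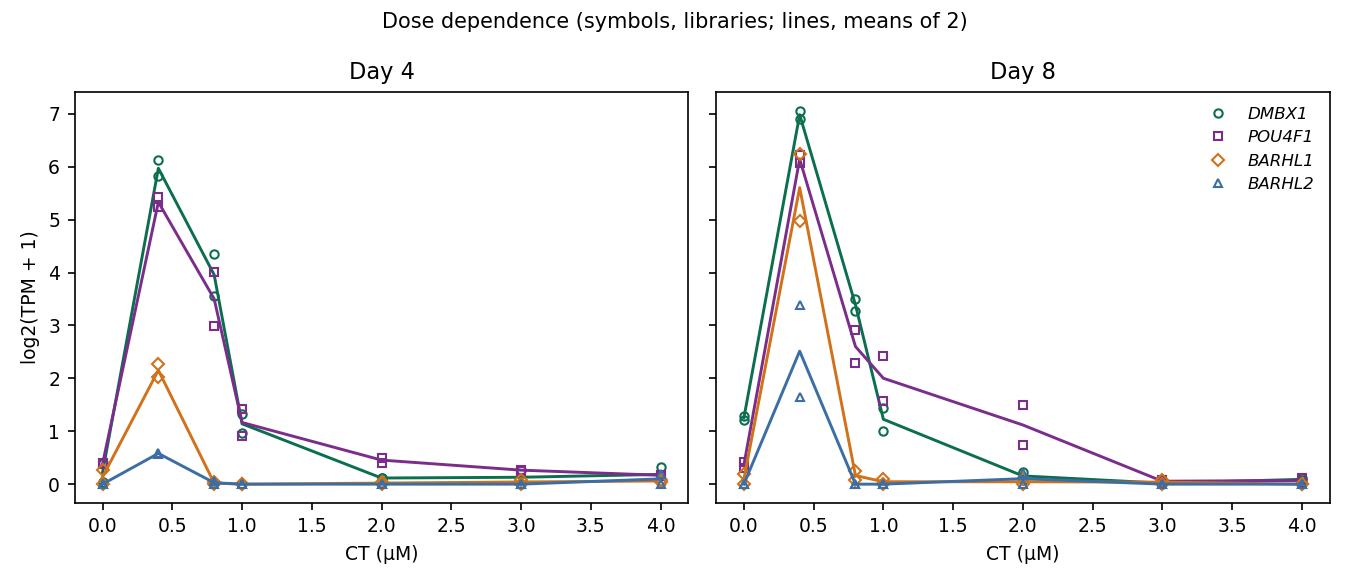
Level of the 4 genes as log2(TPM + 1) (vertical axes) against the CT dose in µM at day 4 (left) and day 8 (right). Symbols are libraries and lines join means of 2. The maximum is at 0.4 µM in every curve, and the POU4F1 line falls more slowly than the DMBX1 line between 0.8 and 2.0 µM at day 8.

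From 0.4 to 0.8 µM at day 4, DMBX1 fell by 2.01 ± 0.23, POU4F1 fell by 1.83 ± 0.30 and BARHL1 fell by 2.13 ± 0.24, 3 of 4 members against 0.45% of all genes. In TPM these were ratios of 4.10 (DMBX1) and 3.57 (POU4F1) between the means. The fall of BARHL1 is a description, since it passed the filter only through CT0.4 groups. From 0.8 to 1.0 µM, DMBX1 fell by a further 2.82 ± 0.23 and POU4F1 fell by 2.34 ± 0.30, with 0.751% of genes falling. From 1.0 to 2.0 µM only DMBX1 was called (-1.02 ± 0.23, adjusted p = 0.00864; 0.815% of genes fell). That call was lost without replicate 1 of D4 CT1.0 (-0.84, adjusted p = 0.134) or replicate 2 of D4 CT2.0 (-1.02, adjusted p = 0.066). In the steps above 2.0 µM at day 4 no member was called and none had an unadjusted p under 0.05.

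At day 8 the CT0.4 libraries held 119 and 132 TPM of DMBX1, 73.2 and 66.4 TPM of POU4F1, 30.5 and 74.3 TPM of BARHL1, and 2.12 and 9.48 TPM of BARHL2. The CT0.4 group did not overlap with any other day 8 group in any of the 4 genes. Its 2 libraries were close for DMBX1 and POU4F1 and far apart for BARHL1 and BARHL2. In untreated cells at day 8, DMBX1 was at 1.43 and 1.33 TPM and POU4F1 at 0.237 and 0.337. BARHL1 was listed at 0 and 0.136 TPM and BARHL2 at 0 in both untreated libraries.

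All 4 members rose at D8 CT0.4 against untreated cells, where 3.55% of genes rose. BARHL1 and BARHL2 passed the filter only through CT0.4 groups, so their part of this count is a description. The change was 5.73 ± 0.23 for DMBX1 (adjusted p = 2.6e-14), 5.78 ± 0.30 for POU4F1 (adjusted p = 1.7e-12), 5.51 ± 0.24 for BARHL1 (adjusted p = 6.8e-14) and 2.51 ± 0.29 for BARHL2 (adjusted p = 1.1e-06). The BARHL2 value was 3.39 without replicate 1 and 1.64 without replicate 2 of D8 CT0.4, and remained called in both. With only the 4 libraries compared in the fit, which leaves 2 residual degrees of freedom, the same differences of BARHL1 (adjusted p = 0.0829) and BARHL2 (0.244) did not pass. Those of DMBX1 and POU4F1 did (adjusted p = 0.0215 for both). Of all member calls at a dose, between doses or between days, 8 passed in such fits: the CT0.4 rises of DMBX1 and POU4F1 on both days, and at day 8 the fall of DMBX1 from CT0.4 to CT0.8 and its lower levels at CT2.0, CT3.0 and CT4.0. The other 24, among them every call for CT0.8 or CT1.0 against untreated cells and every call between days, did not.

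At D8 CT0.8 DMBX1 was at 10.4 and 8.68 TPM and POU4F1 at 6.57 and 3.86. Both rose against untreated cells (2.14 ± 0.23 and 2.24 ± 0.30), with 1.97% of genes rising. BARHL1 was at or under 0.181 TPM there and BARHL2 was listed at 0. At D8 CT1.0, POU4F1 was at 4.37 and 1.99 TPM and rose (1.64 ± 0.30, adjusted p = 4.6e-04, 1 of 4 members; 1.79% of genes rose). The postmitotic neuron markers summed to 1131 and 868 TPM in these 2 libraries, the highest of all groups, against 434 and 429 in untreated cells, and like POU4F1 were higher in replicate 1. Their part in the POU4F1 level was not tested. DMBX1 was at 1.72 and 1.01 TPM, which overlapped with its untreated level (-0.03 ± 0.23). At D8 CT2.0, POU4F1 was at 1.82 and 0.675 TPM, a difference of 0.76 ± 0.30 from untreated cells that did not pass (adjusted p = 0.0811). The difference was called with pseudocounts of 0.1 (1.67) and 0.5 (1.07), and after rescaling without ribosomal and mitochondrial genes (1.01). With 1 library left out it ranged from 0.38 to 1.13, the highest without replicate 2 of D8 CT2.0.

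DMBX1 fell below its untreated day 8 level at the 3 highest doses, and no other member did. The change was -1.10 ± 0.23 at CT2.0 (0.169 and 0.062 TPM), -1.23 ± 0.23 at CT3.0 (0 and 0.026 TPM) and -1.16 ± 0.23 at CT4.0 (0.079 and 0.052 TPM). Of all genes, 4.34%, 13.1% and 12.7% fell in these comparisons. Rescaling libraries by their median ratio raised the median change of all genes by 0.12, 0.28 and 0.27 in these comparisons, and the CT2.0 value of DMBX1 was then -0.98, under the size asked. For the other 3 genes the untreated level was at or under 0.337 TPM in both libraries, too low for a fall of this size on the log2(TPM + 1) scale.

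In steps between doses at day 8, all 4 members fell from 0.4 to 0.8 µM, where 4.23% of genes fell. This count has the same limit from the filter for BARHL1 and BARHL2. DMBX1 fell by 3.59 ± 0.23 and POU4F1 fell by 3.54 ± 0.30, ratios of 13.2 and 13.4 between mean TPM. BARHL1 fell by 5.44 ± 0.24 and BARHL2 fell by 2.51 ± 0.29, to the levels near 0 given above. From 0.8 to 1.0 µM, DMBX1 fell by 2.16 ± 0.23 (1 of 4 members; 2.06% of genes fell), whereas POU4F1 had a difference of -0.60 ± 0.30 (adjusted p = 0.196) with overlapping libraries. From 1.0 to 2.0 µM, DMBX1 fell by 1.07 ± 0.23 (1.08% of genes fell), a call lost without replicate 1 of D8 CT1.0 (-0.85, adjusted p = 0.108) or replicate 2 of D8 CT2.0 (adjusted p = 0.0582). POU4F1 had a difference of -0.88 ± 0.30 there (adjusted p = 0.0846), and was called without replicate 2 of D8 CT1.0 (-1.30) or replicate 1 of D8 CT2.0 (-1.26). From 2.0 to 3.0 µM, POU4F1 fell by 1.06 ± 0.30 (adjusted p = 0.00755; 8.79% of genes fell), and the value was -0.69 without replicate 1 of D8 CT2.0 (adjusted p = 0.166). Whether DMBX1 and POU4F1 differ in these steps was not tested.

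The ratio of DMBX1 to POU4F1 in TPM, which is corrected for length, also differed by dose. At CT0.4 and CT0.8 it lay between 1.29 and 2.25 in the 8 libraries of both days. At CT1.0 it was 0.886 in replicate 1 of day 4, and 0.395 and 0.507 in the day 8 libraries. These are the libraries in which both genes reached 1 TPM. In replicate 2 of D4 CT1.0, where both were under 1 TPM, DMBX1 was at 0.945 and POU4F1 at 0.869 TPM. DMBX1 was thus the more abundant transcript in all libraries of the 2 lower doses, and POU4F1 in both libraries of D8 CT1.0, while the 2 libraries of D4 CT1.0 differed in order.

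Between day 4 and day 8 at CT0.4, mean TPM went from 62.1 to 126 for DMBX1 (a ratio of 2.03), from 39.4 to 69.8 for POU4F1 (1.77), from 3.47 to 52.4 for BARHL1 (15.1) and from 0.497 to 5.80 for BARHL2, for which no ratio is given because its day 4 level was under 1 TPM. Over the 4 possible pairs of a day 8 with a day 4 library the ratio ranged from 1.73 to 2.39 for DMBX1, from 1.58 to 2.00 for POU4F1 and from 7.95 to 24.0 for BARHL1. No day 8 library overlapped with a day 4 library at CT0.4 in any of the 4 genes. On the log2 scale 3 of 4 members rose, against 8.90% of all genes: BARHL1 by 3.45 ± 0.24, BARHL2 by 1.93 ± 0.29 and DMBX1 by 1.01 ± 0.23 (adjusted p = 0.0017). BARHL2 passed the filter only through D8 CT0.4, so its rise here is a description. The DMBX1 call sat at the threshold. Rescaling by the median ratio, which lowered the median change of all genes in this comparison by 0.17, gave 0.76 for DMBX1, and leaving out replicate 1 of D4 CT0.4 or replicate 2 of D8 CT0.4 gave 0.86 or 0.94, all under the size asked. POU4F1 had a difference of 0.81 ± 0.30 (adjusted p = 0.044), also under it.

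In other conditions 1 change from day 4 to day 8 was called. DMBX1 rose in untreated cells (1.03 ± 0.23, adjusted p = 0.00274, 1 of 4 members), where 4.11% of genes rose. This value was 0.85 without replicate 1 of D4 CT0.0, 1.00 without replicate 1 of D8 CT0.0 and 0.94 after median-ratio rescaling, and was not called in these. At CT0.8 both expressed members were lower at day 8, at -0.57 ± 0.23 for DMBX1 (adjusted p = 0.0946) and -0.90 ± 0.30 for POU4F1 (adjusted p = 0.0354), neither called. The POU4F1 value was called without replicate 2 of D4 CT0.8 (-1.41) or replicate 1 of D8 CT0.8 (-1.22). At CT1.0 POU4F1 was higher at day 8 by 0.84 ± 0.30 (adjusted p = 0.0532), and was called without replicate 2 of D8 CT1.0 (1.26).

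The difference between the days in the effect of a dose was tested as an interaction. For the effect of CT0.4 on BARHL2, listed at 0 in all untreated libraries, this repeats its change from day 4 to day 8 at CT0.4 (1.93). BARHL2 passed the filter only through D8 CT0.4. Its larger effect at day 8 was thus nearly fixed in advance, and its part of the count below is a description. For BARHL1, at or under 0.207 TPM in untreated cells, it nearly does (3.45 between the days). The effect of CT0.4 over untreated cells was larger at day 8 than at day 4 for BARHL1 by 3.50 ± 0.33 (adjusted p = 1.2e-07) and for BARHL2 by 1.93 ± 0.41 (adjusted p = 0.00233), 2 of 4 members, while 5.09% of all genes had a called difference in this direction. For DMBX1 the difference was -0.02 ± 0.33, with a 95% interval from -0.70 to 0.66, and for POU4F1 0.84 ± 0.42, with an interval from -0.04 to 1.71 (adjusted p = 0.222). The BARHL1 difference was 4.12 without replicate 1 and 2.87 without replicate 2 of D8 CT0.4. The BARHL2 difference was 2.81 and 1.06 in the same order, and both genes kept their calls. For the effect of CT0.8, DMBX1 had a smaller value at day 8 (-1.60 ± 0.33, adjusted p = 0.00589, 1 of 4 members), where 1.06% of genes had a called difference in this direction. With a pseudocount of 0.1 it did not pass (-3.26, adjusted p = 0.0746). DMBX1 was lower at CT0.8 and higher in untreated cells at day 8 than at day 4. POU4F1 had a difference of -0.88 ± 0.42 in the effect of CT0.8 (adjusted p = 0.329).

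**Figure D3:**
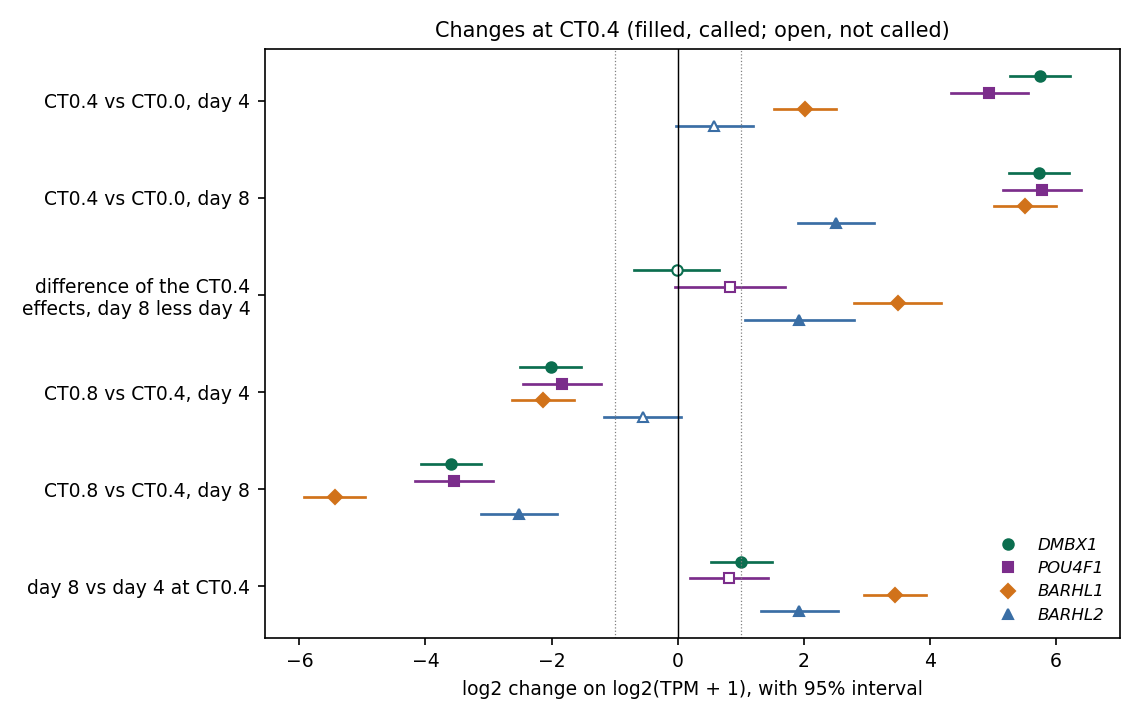
Log2 changes of the 4 genes on log2(TPM + 1) (horizontal axis) with 95% intervals, for the comparisons named on the vertical axis; filled symbols were called and open symbols were not, and dotted lines mark a change of 1 in size. DMBX1 and POU4F1 sit near 5 to 6 at CT0.4 on both days, whereas BARHL1 moves from 2.02 to 5.51 and BARHL2 from 0.58 to 2.51.

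Blocking WNT secretion left no member with a called change, but only DMBX1 at day 8 stood high enough in untreated cells for a called fall. DMBX1 at day 4 and the other members on both days were at or under 0.357 TPM in every untreated and IWP2 library. With IWP2, 0 of 4 members were called by limma at day 4 (0.283% of genes in either direction, and 0 members at an unadjusted p under 0.05) and 0 of 4 at day 8 (0.425% of genes, and 1 member at an unadjusted p under 0.05). That member was DMBX1, at 0.257 and 0.189 TPM in D8 IWP2 against 1.43 and 1.33 in untreated cells, without overlap (-0.96 ± 0.23, adjusted p = 0.0526). With a pseudocount of 0.5 it was called (-1.38, adjusted p = 0.0426). Whether the IWP2 effect on DMBX1 differed between the days did not pass (-0.81 ± 0.33, adjusted p = 0.369). Adding retinoic acid to CT4.0 gave 0 of 4 calls at day 4 (5.84% of genes in either direction) and at day 8 (8.87%), with 0 members at an unadjusted p under 0.05 on either day, and all members were under 0.4 TPM in these groups. Neural induction without CT from day 0 to day 4 also gave 0 of 4 calls (16.8% of genes were called, and 0 members had an unadjusted p under 0.05). All members were at or under 0.407 TPM in these libraries, also too low for a called fall.

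The 2 libraries of D8 CT0.4 differed in opposite directions for the Bar genes and for the dorsal genes. Replicate 2 held 2.44 times the BARHL1 and 4.48 times the BARHL2 of replicate 1. Among 18982 genes in this group, 7.52% had a larger gap than BARHL1 in either direction and 2.3% a larger gap than BARHL2. DMBX1 (a ratio of 1.11) and POU4F1 (0.907) were near 1. The lists named next and the limit of 5 TPM for this description were set with these values known, so it carries no test.

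Of the dorsal neural tube list, 14 genes had a mean of at least 5 TPM in D8 CT0.4, and all 14 were higher in replicate 1, 8 of them by more than 1.5 times. MSX1, a BMP-induced factor of the roof plate, the dorsal midline of the neural tube, was at 316 and 151 TPM. LMX1A, a factor that specifies the roof plate, was at 278 and 170. This order was not particular to D8 CT0.4: all 14 genes were also higher in replicate 1 in D8 CT0.8. MSX1 was at 35.3 and 19.9 TPM there, and LMX1A at 14.9 and 7.36. Of the diencephalon list, 9 genes other than members passed the same limit in D8 CT0.4. Replicate 2 was the higher for 6 of these, by more than 1.5 times for 5. Among these were LHX5 (9.91 and 30.1 TPM), a LIM factor of the early diencephalon, FOXB1 (2.74 and 7.59), a factor of the mammillary region, WNT8B (16.0 and 31.5) and TCF7L2 (77.7 and 133), a nuclear effector of WNT signalling in the thalamus. Of the remaining 3, OLIG3 and WNT3A are also on the dorsal list. Over all 13158 genes at this level, 49.4% were higher in replicate 1, 4.98% by more than 1.5 times, and 6.27% were higher in replicate 2 by more than 1.5 times. The marker list of neural crest, which holds MSX1, summed to 380 and 208 TPM in these libraries. Against untreated cells 3 of its 10 genes rose, MSX1, SNAI2 (14.5 ± 4.10 against 3.95 ± 0.298 TPM) and TFAP2B (3.14 ± 1.07 TPM, listed at 0 in untreated cells), and 1 fell. SOX10 (0.282), FOXD3 (0.313) and TFAP2A (0.318) were under 1 TPM as means. The part of these gaps in the BARHL results was not tested.

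**Figure D4:**
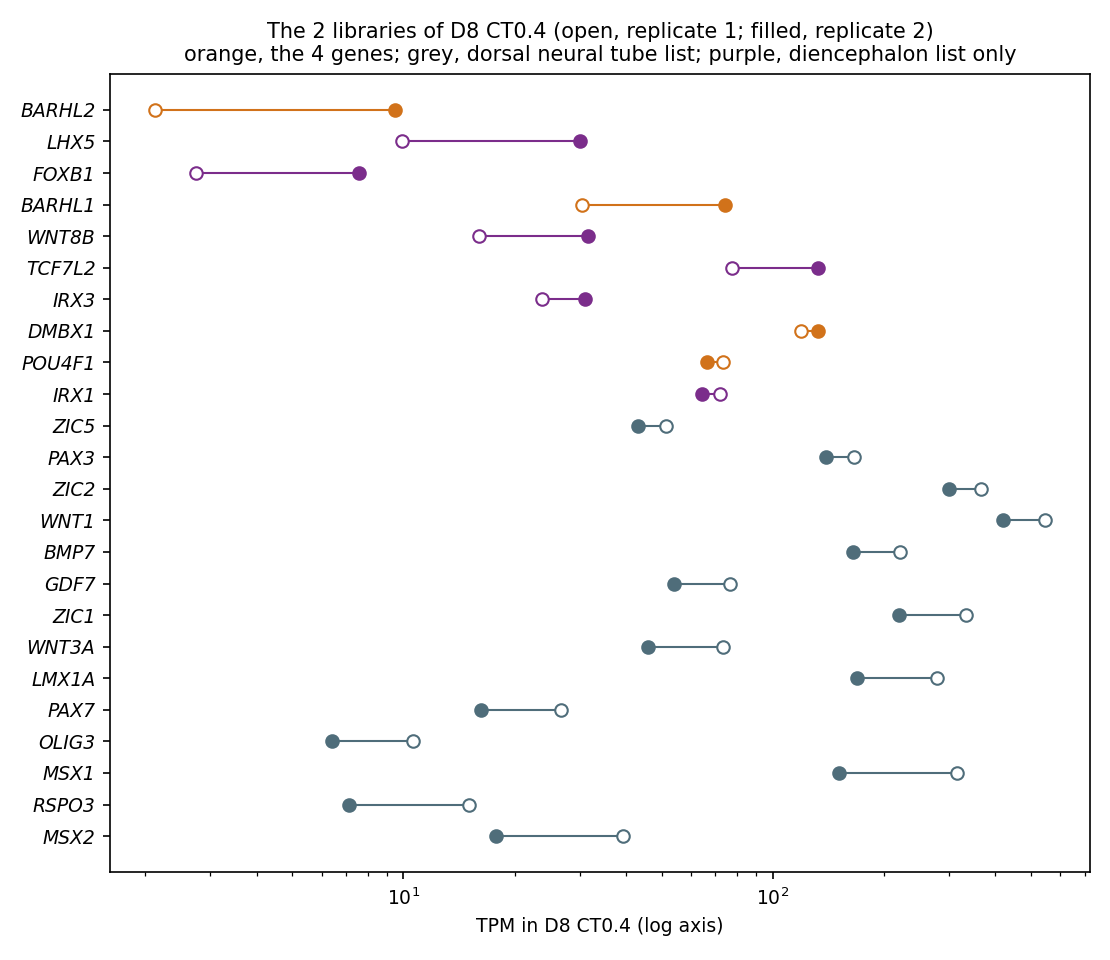
TPM (horizontal axis, log scale) in replicate 1 (open) and replicate 2 (filled) of D8 CT0.4 for the 4 genes (orange) and for other genes of the 2 lists with a mean of at least 5 TPM that are reported here, ordered by the ratio of the libraries. BARHL1 and BARHL2 lie with LHX5 and FOXB1 at the top, where replicate 2 is higher, and all 14 dorsal genes lie at the bottom, where replicate 1 is higher.

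Likeness of profiles was described by Pearson's r over the 19 group means of log2(TPM + 1). The points share the libraries, days and doses, and the CT0.4 groups carry much of each r. Among protein-coding genes with a group mean of at least 5 TPM, DMBX1 and POU4F1 were each other's closest gene (r = 0.978, Spearman's rho 0.71). BARHL1 and BARHL2 were also each other's closest (r = 0.988, rho 0.54), while r across the pairs lay between 0.739 and 0.799. After POU4F1, DMBX1 was most like OTX1 (0.914), an OTX factor of forebrain and midbrain, and LMX1B (0.912), a LIM factor of the dorsal midline and midbrain. POU4F1 was most like LMX1B (0.931) and WNT4 (0.902), a WNT ligand. OTX1 was at 77.8 and 97.6 TPM in D4 CT0.4 and at 229 and 239 in D8 CT0.4.

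The genes after its paralog most like BARHL1 were TTR (0.935), a thyroid hormone carrier made by the choroid plexus, and KCNA1 (0.934), a potassium channel. For BARHL2 they were TTR (0.971) and GMNC (0.968), a regulator of multiciliated cells. TTR, GMNC and KCNA1 had group means of 27.2, 6.0 and 5.76 TPM in D8 CT0.4 and were at or under 0.363 TPM in the other CT0.0 to CT1.0 groups. Between the libraries of D8 CT0.4 these genes differed in order. TTR (41.0 and 13.4 TPM) and GMNC (6.93 and 5.06) were higher in replicate 1, against the order of the Bar genes. KCNA1 (5.08 and 6.45) was higher in replicate 2, as the Bar genes were. By rank the likeness of BARHL1 to TTR was weak (rho 0.24), and that to KCNA1 was 0.50. For BARHL2, rho was 0.34 with TTR and 0.01 with GMNC.

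Among genes commonly placed with the members, the diencephalon list moved mainly at day 8. At D4 CT0.4 against untreated cells, 2 of 20 tested genes rose and 4 fell, with a median change of 0.02 against -0.10 over all genes. IRX1 (79.1 ± 10.3 TPM against 5.79 ± 1.07, n = 2) and FOXB1 (47.3 ± 5.97 against 3.54 ± 0.187) rose. FEZF1, a rostral forebrain repressor (103 ± 10.7 against 436 ± 3.58), and GBX2, a factor of the anterior hindbrain and thalamus (0.0885 ± 0.00419 against 2.31 ± 0.208), fell. At D8 CT0.4, 11 rose and 3 fell (median 1.13 against 0.00), led by WNT3A (59.7 ± 19.3 against 0.0133 ± 0.0188 TPM) and WNT8B upward and by FEZF1 (3.09 ± 0.253 against 179 ± 20.1) and FEZF2 (3.38 ± 2.38 against 36.1 ± 11.4) downward. From day 4 to day 8 at CT0.4, 10 rose and 3 fell (median 0.97 against 0.17), and FOXB1 was among those that fell (-3.09 ± 0.24), opposite to BARHL1 and BARHL2. With only the 4 libraries compared in the fit, 1 gene of this list rose and 1 fell at D4 CT0.4, in place of 2 and 4. In such fits 1 rose and 1 fell at D8 CT0.4 in place of 11 and 3, and 6 rose and 1 fell between the days in place of 10 and 3.

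The midbrain and pretectum list had 6 of 16 genes up and 2 down at D4 CT0.4 (median 0.80 against -0.10 over all genes), and 0 up and 1 down in the fit of 4 libraries. The count of 2 was 1 after either rescaling and without replicate 2 of D4 CT0.0 or either library of D4 CT0.4. PAX3, a factor of the dorsal midbrain (25.6 ± 0.107 against 1.73 ± 0.502 TPM), and WNT1 (8.42 ± 1.59 against 0.0604 ± 0.0855) rose, and FGF8, the isthmic signal (11.5 ± 0.806 against 41.6 ± 0.896), and MEIS2 (7.98 ± 0.562 against 21.9 ± 9.26) fell. At D8 CT0.4, 7 rose and 1 fell (median 0.69 against 0.00; 3 and 0 in the fit of 4 libraries), with WNT1 at 484 ± 90.1 TPM and LMX1A at 224 ± 76.9 against 0.0685 ± 0.0968 and 0.125 ± 0.0445. From day 4 to day 8 at CT0.4, 8 rose and 4 fell (median 1.15 against 0.17; 1 fell in the fit of 4 libraries), and PAX2 was one of those that fell, from 34.4 ± 5.21 to 0.743 ± 0.249 TPM.

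The dorsal neural tube and rhombic lip list, which shares WNT1, PAX3, LMX1A, WNT3A and other genes with the 2 lists above, had 3 of 18 genes up and 3 down at D4 CT0.4 (median 0.04). These counts were 0 up and 1 down in the fit of 4 libraries, and 5 were down with a pseudocount of 0.1. LHX2 (0.378 ± 0.43 against 69.6 ± 13.2 TPM) and ZIC1 (0.740 ± 0.184 against 5.82 ± 0.459) fell. At D8 CT0.4, 16 rose and 1 fell (median 3.41 against 0.00), and from day 4 to day 8 at CT0.4, 15 rose and 0 fell (median 3.82 against 0.17). In the fit of 4 libraries, 5 and 12 rose. ZIC1 (0.740 ± 0.184 to 277 ± 80.3 TPM) and GDF7 (0.1 ± 0.0354 to 65.4 ± 15.9), a roof plate ligand of the BMP family, led these. The rise of BARHL1 and BARHL2 at CT0.4 between the days thus stood beside that of the roof plate genes over group means, and ran against it between the libraries of D8 CT0.4.

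Of the sensory neuron list, which holds known companions of POU4F1, 0 of 10 tested genes were called by limma at D4 CT0.4 (median 0.04; 2 at an unadjusted p under 0.05), where POU4F1 was at 39.4 ± 3.93 TPM. NEUROD4 (0.999 ± 0.0766 against 0.0127 ± 0.018 TPM) was just under the size asked (0.98 ± 0.23, adjusted p = 0.00668), and 1 gene of the list was called with either other pseudocount, after rescaling without ribosomal and mitochondrial genes and without replicate 2 of D4 CT0.4. At D8 CT0.4, 4 rose and 0 fell (median 0.80 against 0.00), and 0 rose in the fit of 4 libraries. NEUROG1, a proneural factor of sensory lineages, was at 3.56 ± 0.545 TPM and listed at 0 in untreated cells. From day 4 to day 8 at CT0.4, 3 rose and 0 fell (median 0.76 against 0.17), and 6 rose without replicate 1 of D8 CT0.4. The POU4F1 paralogs POU4F2 and POU4F3 stayed at or under 0.175 and 0.294 TPM in every group mean. Canonical WNT targets had 5 of 12 genes up and 0 down at D4 CT0.4 (median 0.69 against -0.10) and 6 up and 0 down at D8 CT0.4 (median 1.02 against 0.00). In the fit of 4 libraries, 3 and 1 rose. SP5 was at 53.0 ± 7.67 TPM in D4 CT0.4 and 22.9 ± 1.09 in D8 CT0.4, and AXIN2, a feedback inhibitor of the pathway, at 57.1 ± 5.28 and 295 ± 77.3. From day 4 to day 8 at CT0.4, 4 of these targets rose and 2 fell (median 0.45 against 0.17), and 2 and 1 in the fit of 4 libraries. DKK1, a secreted WNT antagonist, fell from 20.3 ± 0.539 to 0.702 ± 0.474 TPM.

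Markers of other cell types were read in the same groups. The list of postmitotic neurons summed to 271 and 306 TPM in D4 CT0.4 and to 729 and 623 in D8 CT0.4, against 434 and 429 in untreated cells at day 8. Against untreated cells at day 8, 5 of its 12 genes rose and 1 fell. MAP2 made up much of the higher sum (255 ± 29.1 against 119 ± 14.1 TPM), TUBB3 was at 239 ± 40 against 177 ± 4.37, STMN2 at 40.8 ± 2.99 against 45.8 ± 1.10, and DCX fell (10.8 ± 0.48 against 23.2 ± 3.54). Neural progenitor genes summed to 1274 and 1309 TPM in D4 CT0.4 and to 3039 and 3112 in D8 CT0.4, against 2367 and 2272 in untreated cells at day 8. Of these 8 genes, 3 rose there, VIM among them (1651 ± 69.9 against 681 ± 28.99 TPM), and 3 fell: SOX2 (129 ± 28 against 400.0 ± 20.2), HES5 (14.96 ± 9.61 against 156 ± 0.707) and FABP7 (76.0 ± 12.8 against 271 ± 34.6). Placode genes summed to 11.6 to 13.2 TPM in the 4 CT0.4 libraries, most of it SIX4 (6.87 TPM in D8 CT0.4). At D8 CT0.4 against untreated cells, 1 of its 6 tested genes rose and 2 fell (median -0.85 against 0.00 over all genes). GATA3 rose (1.56 ± 0.864 against 0.0877 ± 0.0833 TPM). EYA1 was lower (1.47 ± 0.0194 against 3.98 ± 0.0134), as was DLX5 (0.316 ± 0.0567 against 1.76 ± 1.06), and DLX6 and FOXI1 were at 0. Mesoderm genes summed to at most 2.08 TPM there. The endoderm list summed to 29.3 and 44.7 TPM in D8 CT0.4, nearly all of it CXCR4, which is not particular to endoderm (36.8 ± 10.7 against 29.3 ± 1.03 in untreated cells), with SOX17 and GATA4 at 0. CXCR4 rose at D4 CT0.4 (25.2 ± 1.82 against 4.59 ± 0.775 TPM). Pluripotency genes summed to 230 and 218 TPM in D4 CT0.4 and to 141 and 142 in D8 CT0.4, where NANOG was at 0.138 TPM. The part of neurons in the day 8 levels of POU4F1 and the Bar genes was not tested.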

How the data were processed

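Expression was measured by paired-end sequencing of poly(A) RNA. Libraries were run on either of 2 HiSeq models, per the labels' protocols, and no library is tied to a model. The authors deposited 1 table of TPM per gene for 38 libraries. The tools were Salmon 0.8.2 and CASAVA 1.7 and the build was hg38, per the submitters' processing notes. For settings, strand and annotation the sources used here give nothing. TPM holds no depth, so no counting interval can be given. From these values, log2(TPM + 1) of 28221 genes (2 or more libraries at 1 TPM or above) was fitted with limma 3.58.1 (R 4.3.3), with 1 mean per group, an eBayes trend and 19 residual degrees of freedom, over 40 contrasts. The p-values were adjusted within each contrast. The fit was checked on simulated data. Figures were drawn with matplotlib 3.10.9.

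The members, gene lists and tests were chosen with earlier results of these data known. Named genes are the 4 members, the 3 genes most like each by r, and, for every list, the pair of called genes that rose most and the pair that fell most in 3 comparisons at CT0.4. Values of OTX2, EN1, GBX2 and HOXA2 across doses, the POU4F1 paralogs, the overlapping antisense gene, the marker genes printed and the genes printed for the 2 libraries of D8 CT0.4 were chosen after values were seen. Alternatives were pseudocounts of 0.1 and 0.5, no filter, a filter of 5 TPM, protein-coding genes only, 2 rescalings, eBayes without a trend, fits of only the libraries compared, a replicate block, and each library left out in turn. Some listed genes are not reported here.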

Additional observations from a re-analysis of the deposited data

Results flagged for a closer look

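For 3 results the effect of a dose differed between the days by the interaction test of limma, with adjustment over all tested genes. The effect of CT0.4 over untreated cells was larger at day 8 for BARHL1 by 3.50 ± 0.33 (adjusted p = 1.2e-07) and for BARHL2 by 1.93 ± 0.41 (adjusted p = 0.00233), and these 2 paralogs were the members whose libraries differed most at D8 CT0.4. Over all alternatives and libraries left out, the BARHL1 value ranged from 2.87 to 4.12 and the BARHL2 value from 1.06 to 2.95. Both genes were near 0 in untreated cells, so these interactions largely repeat their changes between days at CT0.4. BARHL2 passed the filter only through D8 CT0.4, so its result was nearly fixed in advance and is a description. The effect of CT0.8 on DMBX1 was smaller at day 8 (-1.60 ± 0.33, adjusted p = 0.00589). It ranged from -3.26 with a pseudocount of 0.1 to -1.20, and its adjusted p reached 0.0746 at the highest.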

How the results depend on the processing

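Groups of 2 libraries and values without depth limit these results. Over all genes the replicate number showed no shared shift: over 171 pairs of groups, deviations of same-numbered libraries had r from -0.043 to 0.037 (0 over 0.1). This does not cover single genes, and it does not show that the libraries are unpaired. DMBX1 and POU4F1 were higher in replicate 1 at CT0.8, CT1.0 and CT2.0 on both days. Both were higher in replicate 2 in D4 CT0.4, and they differed in order in D8 CT0.4. With the replicate number as a block, members were called in 5 and 10 of the 24 dose comparisons of day 4 and day 8, 6 and 7 of the 20 steps, 4 between days and 3 interactions, as without it, and no call of a member changed. With only the libraries compared, these counts were 2, 5, 0, 1 and 0 between days (interactions were not run this way), and the fit has 2 residual degrees of freedom. Under it, 24 calls were lost with differences unchanged: DMBX1 (CT0.8 less CT0.0, 3.74 at D4 and 2.14 at D8; D4 CT0.8 less CT0.4, -2.01; CT1.0 less CT0.8, -2.82 and -2.16; CT2.0 less CT1.0, -1.02 and -1.07; D8 less D4, 1.03 at CT0.0 and 1.01 at CT0.4), POU4F1 (CT0.8 less CT0.0, 3.12 and 2.24; D8 CT1.0 less CT0.0, 1.64; CT0.8 less CT0.4, -1.83 and -3.54; D4 CT1.0 less CT0.8, -2.34; D8 CT3.0 less CT2.0, -1.06), BARHL1 (D4 and D8 CT0.4 less CT0.0, 2.02 and 5.51; CT0.8 less CT0.4, -2.13 and -5.44; D8 less D4 at CT0.4, 3.45) and BARHL2 (D8 CT0.4 less CT0.0, 2.51; CT0.8 less CT0.4, -2.51; D8 less D4, 1.93). It moved 20 of 22 counts of all called genes, by up to 8.66 times. Against CT0.0 these went from 629 to 102 (D4 CT0.4), 757 to 175 (D4 CT0.8), 1701 to 253 (D8 CT0.4), 1282 to 266 (D8 CT0.8), 1296 to 216 (D8 CT1.0), 1808 to 652 (D8 CT2.0), 4585 to 2769 (D8 CT3.0) and 4469 to 2869 (D8 CT4.0). Between neighbouring doses they went from 334 to 77 (D4 CT0.8 less CT0.4), 266 to 54 (D4 CT1.0 less CT0.8), 535 to 74 (D4 CT2.0 less CT1.0), 1832 to 338 (D8 CT0.8 less CT0.4), 1048 to 121 (D8 CT1.0 less CT0.8), 498 to 103 (D8 CT2.0 less CT1.0) and 3632 to 2230 (D8 CT3.0 less CT2.0). Between days they went from 1631 to 322 (CT0.0) and 3015 to 1145 (CT0.4), with retinoic acid from 1648 to 429 (D4) and 2504 to 1420 (D8), and from D0 to D4 CT0.0 from 4728 to 2851. With protein-coding genes only, 7 of 24 counts moved: 1282 to 836 (D8 CT0.8 less CT0.0), 4585 to 3026 (D8 CT3.0 less CT0.0), 1832 to 1216 (D8 CT0.8 less CT0.4), 1048 to 671 (D8 CT1.0 less CT0.8), 3632 to 2382 (D8 CT3.0 less CT2.0), 1631 to 1063 (D8 less D4 at CT0.0) and 120 to 78 (D8 IWP2). A pseudocount of 0.1 moved 1 (120 to 79, D8 IWP2) and a filter of 5 TPM moved 1 (80 to 52, D4 IWP2). With a pseudocount of 0.1, DMBX1 lost its calls for D4 CT0.8 less CT0.4 (-2.08, adjusted p = 0.12) and D8 less D4 at CT0.4 (1.02, adjusted p = 0.299), members were called in 8 of the day 4 dose comparisons, and 1 call appeared with retinoic acid. A pseudocount of 0.5 gave 1 call with IWP2. Median-ratio rescaling left 2 calls between days. The DMBX1 change of D8 less D4 at CT0.4 was 0.76 under it, 0.82 when rescaled without ribosomal and mitochondrial genes, and 0.86 to 1.17 with 1 library left out. Differences near 0 changed sign for DMBX1: D8 CT1.0 less CT0.0 was 0.0185 and 0.0043 with the rescalings and -0.24 to 0.19 with 1 library left out, D8 less D4 at CT1.0 was -0.0491 with the median ratio and -0.13 to 0.31 with 1 left out, and the CT0.4 interaction was -0.19 to 0.16 with 1 left out. BARHL2 has no value under the filter of 5 TPM. A lone library left in a group is assumed to vary like the other groups. The causes of these changes were not tested.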

Other observations

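Genes that mark other regions were read beside the members over the lower doses, as values without a test. OTX2, a factor of forebrain and midbrain, was at 427 and 415 TPM in D4 CT0.4, where DMBX1 and POU4F1 were high, at 89.7 and 57.6 in D4 CT0.8 and at 11.8 and 4.55 in D4 CT1.0. At day 8 it was at 413 and 403 TPM in CT0.4, 65.8 and 67.3 in CT0.8, and 6.19 and 5.99 in CT1.0, so that both it and DMBX1 were lower at each step from CT0.4 to CT1.0. EN1, a factor of the midbrain and isthmus, had its highest group mean in D4 CT0.8 (49.6 and 38.2 TPM), against 5.32 and 8.19 in D4 CT0.4. At day 8 it was at 0.705 and 0.745 TPM in CT0.4 and at 21.5 and 21.7 in CT0.8. HOXA2, a hindbrain factor, was listed at 0 in all 4 CT0.4 libraries and was at 6.28 and 11.4 TPM in D4 CT0.8 and 13.7 and 15.02 in D8 CT0.8. GBX2 was at or under 0.219 TPM in the CT0.4 libraries, and at 8.96 and 15.3 in D4 CT0.8. The CT0.8 groups, in which DMBX1 and POU4F1 were at 3.86 to 19.5 TPM per library, thus also held transcripts of midbrain and hindbrain genes. Bulk values do not show whether the same cells held them.

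In D4 CT0.8, DMBX1, POU4F1, OTX2 and EN1 were higher in replicate 1, and HOXA2 and GBX2 were higher in replicate 2.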
